A study of Mus musculus with 37 samples.

Results

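The Nduf genes encode nearly all nuclear subunits of mitochondrial complex I and several of the proteins that assemble it. They were selected as protein-coding genes whose mouse symbol starts with Nduf and whose mean level over all 37 libraries reached 1 CPM (reads of the gene relative to all reads of its library). All 46 candidate genes met that limit, out of 50686 genes in the table, and all 46 were among the 16728 genes tested. They divide into 36 subunits, 8 assembly factors (Ndufaf1 to Ndufaf8) and 2 genes that carry the name without being classed as complex I subunits, Ndufa4 and Ndufa4l2. The selection used the mean level alone and no comparison between groups.

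Complex I, NADH:ubiquinone oxidoreductase, takes electrons from NADH, passes them along a chain of iron-sulfur clusters to ubiquinone and pumps protons across the inner mitochondrial membrane. Its peripheral arm holds an N module, where NADH is oxidised, and a Q module, where ubiquinone is reduced, while its membrane arm has a proximal and a distal part that pump protons. Modules are built separately with the help of assembly factors that are absent from the finished enzyme. Skeletal muscle relies on it to regenerate NAD+ from NADH, and Nampt, the gene deleted here, encodes the rate-limiting enzyme that makes NAD+ from nicotinamide.

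The study profiled RNA of gastrocnemius muscle by ribosome-depleted, stranded sequencing in wild-type mice and in mice carrying a skeletal-muscle-specific Nampt knockout, labelled SMNKO. Wild-type animals numbered 6, 6, 2 and 5, and knockout animals 5, 5, 2 and 6, at 2, 4, 6 and 8 weeks of age, with 1 library per animal and 2 sequencing pools, A and B. Strain, Cre driver and the deleted exons are not given in the sources used here, and no treatment is labelled.

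Total counts per library ran from 5192700 to 23134727. Nampt fell in knockout muscle at every age, from 50.2 to 75.0 CPM in wild type against 31.3 to 34.8 in knockout at 2 weeks, and from 170 to 236 against 46.5 to 56.0 at 8 weeks (edgeR quasi-likelihood test, log2 fold change -0.96 with adjusted p = 2.33e-06, and -2.04 with adjusted p = 7.36e-16). Muscle fibre markers (Acta1, Ckm, Mb, Tnnt3 and Actn3) summed to between 28430 and 136900 CPM in every library. In 5 libraries over 5% of the counts lay in nuclear rRNA genes (wild-type animals 3 and 4 and knockout animal 8 at 4 weeks, and wild-type animals 34 and 35 at 8 weeks, the only 8-week wild types of pool A). Sex-linked genes went against the labelled sex in knockout animals 12 and 42. Wild-type animal 4, labelled female, had Xist at 45.1 CPM but also 8.00 CPM of the Y-linked gene Ddx3y. It is counted with these animals as the 3 libraries against their sex label. Wild-type animal 36 carried 9293 CPM of the slow myosin Myh7. CPM values use TMM scaling factors (0.443 to 1.59), which set the typical gene to no change, and a gene is called when its edgeR p-value, adjusted by Benjamini-Hochberg over all genes tested, lies below 0.05.

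Subunit RNAs were several times more abundant than assembly factor RNAs. Per kilobase of annotated exon, the 36 subunits had levels of 6.22 to 343 RPKM in wild-type muscle at 8 weeks, with a median of 90.3. The 8 assembly factors had 2.05 to 27.3 RPKM, with a median of 11.04. Ndufb9 of the distal membrane arm stood highest at 343 RPKM. Ndufaf2, an assembly factor that acts late on the peripheral arm, stood lowest at 2.05. Ndufab1, with 6883 annotated exon bases, had the lowest subunit level at 6.22.

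At 2 weeks no complex I RNA separated the genotypes. None of the 46 genes was called by edgeR, none had an unadjusted p below 0.05, and DESeq2 also called 0, while 0.0598% of all genes were called either way. The median log2 fold change was 0.08 over subunits and -0.02 over assembly factors, beside -0.02 over all genes. The 2 subunits with the smallest p were Ndufb7 (0.20, SE 0.12) and Ndufa3 (0.19, SE 0.14), and the 2 assembly factors were Ndufaf4 (-0.17, SE 0.13) and Ndufaf8 (0.15, SE 0.14). Ndufa4, now assigned to complex IV, had 0.10 (SE 0.14), and its relative Ndufa4l2 had -0.16 (SE 0.15). The range ran from -0.05 for Ndufa10 to 0.20 for Ndufb7 among subunits, and no gene had every knockout library below every wild-type library, an arrangement met by 2.45% of all genes.

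In wild-type muscle most complex I RNAs rose between 2 and 4 weeks. On the TMM scale 30 of 46 rose (25 of 36 subunits, 4 of 8 assembly factors and Ndufa4), with 24.2% of all genes called higher; with library totals in place of TMM factors the direction turned, with 0 called higher and 2 lower, as the median of all genes moved from -0.04 to -0.53. Ndufa1, a small membrane subunit encoded on the X chromosome, rose by 0.56 (SE 0.11). Ndufaf4, which acts early on the Q module, rose by 0.71 (SE 0.12) and Ndufaf5, a hydroxylase of the subunit Ndufs7, by 0.65 (SE 0.11). Ndufaf5 went from 17.03 to 18.7 CPM to 23.7 to 30.9, with no overlap. Ndufa4l2, a low-level gene known as a target of hypoxia signalling, was the only 1 of 46 to fall (-0.42, SE 0.14), with 23.6% of all genes called lower. Over the same interval muscle fibre markers were called higher for 5 of 5 (median 1.15), while immature muscle markers were lower for 4 of 5, Schwann cell markers for 4 of 4, endothelial markers for 3 of 4 and fibroblast markers for 3 of 6; their part in these rises was not tested.

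In knockout muscle 8 of 46 were called higher over the same interval on the TMM scale (6 subunits and 2 assembly factors). With 20.3% of all genes called higher, the members were not called higher more often than genes in general. With library totals in place of TMM factors the direction turned, with 10 called lower, and with totals of nuclear protein-coding genes 12 were called lower. It also turned within pool A on the TMM scale, with 0 called higher and 2 lower. Pool A holds only knockout animals 7 and 8 at 4 weeks, and animal 8 is rRNA-rich. Pool B holds only knockout animal 31 at 2 weeks, so its calls are not given. Among the calls with the smallest p were Ndufaf4 (0.52, SE 0.14), Ndufb5 of the distal arm (0.40, SE 0.11) and Ndufaf1 (0.35, SE 0.12), which works in the complex that builds the membrane arm. The count of calls was 21 without knockout animal 8, 3 without animal 7, 4 without animal 10 or 31 and 5 without animal 12. Muscle fibre markers were called higher for 5 of 5 (median 0.93) and macrophage markers for 4 of 8 over the same interval. Endothelial markers were called lower for 4 of 4, with 18% of all genes called lower. The part of these markers was not tested. The difference between the genotypes in the change from 2 to 4 weeks is the difference between the knockout effects at these ages, which was not tested.

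**Figure D1:**
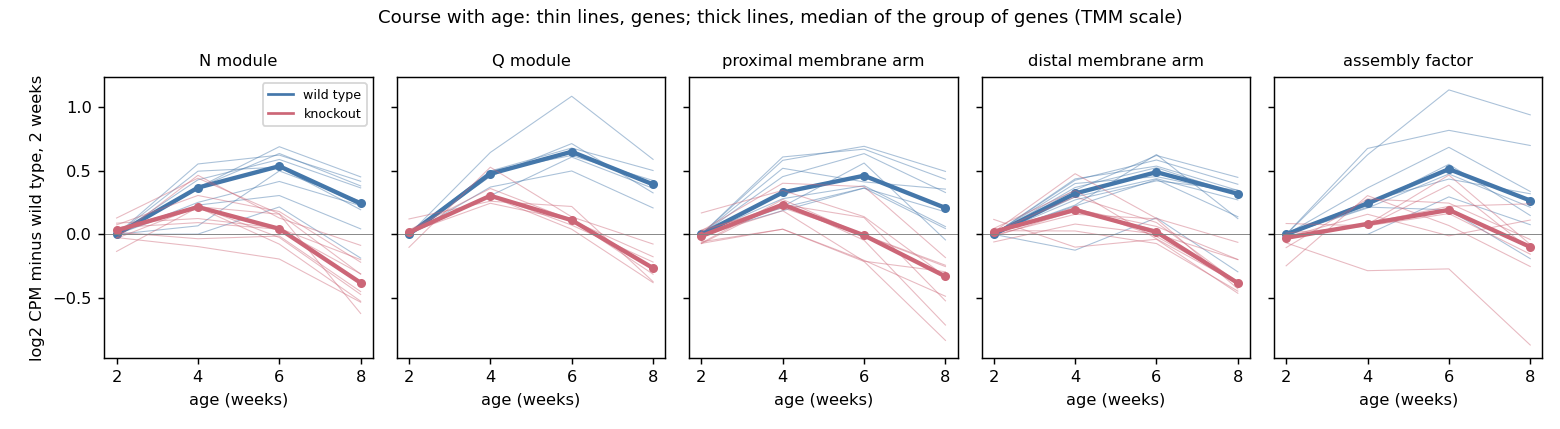
Course of complex I RNAs with age, as log2 CPM (TMM scale) minus the wild-type mean at 2 weeks; thin lines are single genes, thick lines the median of the genes of each module or of the 8 assembly factors, blue for wild type and red for knockout. Wild-type medians stood highest at 6 weeks in each panel, and knockout medians at 8 weeks lay between -0.38 and -0.10; with library totals in place of TMM factors the calls from 2 to 4 weeks and, in knockout, from 4 to 8 weeks turned direction.

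At 4 weeks 1 of 46 genes, Ndufaf5, was called, a count near the share over all genes. Ndufaf5 stood at 23.7, 25.1, 26.2, 29.6, 30.4 and 30.9 CPM in wild-type animals and at 14.3, 17.2, 19.2, 21.4 and 23.3 CPM in knockout animals. All 5 knockout libraries lay below all 6 wild-type libraries, an arrangement that 1.77% of all genes showed and no other member did. It fell by 0.53 log2 units (SE 0.12, edgeR adjusted p = 0.00845), the only 1 of 46 called, with 3.19% of all genes called lower. Over 25 alternatives the value stayed between -0.76 and -0.33, and the adjusted p ran from 0.00315 to 0.853. The call was lost without the 5 rRNA-rich libraries (-0.47, adjusted p = 0.0702), with labelled sex as a term (-0.49, adjusted p = 0.114), and with library totals alone (-0.50, adjusted p = 0.286). It was also lost among pool B libraries (-0.33, adjusted p = 0.853), while pool A gave -0.76 (adjusted p = 0.0308). Macrophage markers were called higher for 4 of 8 at 4 weeks, with a median of 1.204, beside 2.46% of all genes called higher. None of the muscle fibre markers was called. The part of these markers in the Ndufaf5 value was not tested.

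The other assembly factors were not called at 4 weeks. Ndufaf4 had -0.36 (SE 0.13, edgeR adjusted p = 0.095), with knockout libraries from 30.97 to 60.9 CPM and wild-type libraries from 42.4 to 63.1. Ndufaf6 had -0.39 (SE 0.17). Ndufaf8, the partner that keeps the Ndufaf5 protein stable, had 0.07 (SE 0.14). No subunit of 36 was called by edgeR or DESeq2, and 2 had an unadjusted p below 0.05, Ndufa1 (-0.26, SE 0.11) and Ndufs6 (-0.21, SE 0.10). Ndufb4 had the lowest value (-0.28, SE 0.15) and Ndufb5 the highest (0.13, SE 0.10). Ndufa4 had -0.15 (SE 0.13) and Ndufa4l2 -0.06 (SE 0.15).

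The subunit median at 4 weeks, -0.14, included an outlying library, that of knockout animal 8. The median of its subunits relative to the wild-type mean was -0.764, against -0.163 to 0.0994 in the other 4 knockout libraries and -0.172 to 0.149 in wild type. That library had 29.3% of its counts in rRNA genes, and wild-type animals 3 and 4 of this age are rRNA-rich too. Without the rRNA-rich libraries the subunit median was -0.05 and that of assembly factors -0.14, and within pools the subunit median was -0.27 in pool A and 0.00034 in pool B.

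At 6 weeks 7 of 36 subunits, 3 of 8 assembly factors, Ndufa4 and Ndufa4l2 fell in knockout muscle, and 34 of 46 genes did not pass. The 2 knockout libraries lay below both wild-type libraries for 43 of 46 genes (35 of 36 subunits, 6 of 8 assembly factors and both other genes), an arrangement that 26.5% of all genes showed in this small group. All 12 calls were lower, with 4.34% of all genes called lower. The median log2 fold change was -0.48 over subunits and -0.44 over assembly factors, beside 0.03 over all genes. With 2 animals a group the call count was unstable, at 0 without wild-type animal 16 or knockout animal 20, 2 without wild-type animal 17 and 4 without knockout animal 19.

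Subunits were called at 6 weeks in both arms of the complex, 7 in all. Ndufs1, the largest iron-sulfur subunit of the N module, fell by 0.71 log2 units (SE 0.17, edgeR adjusted p = 0.00933). Ndufs4, an accessory N-module subunit whose loss causes Leigh syndrome, fell by 0.69 (SE 0.20). In the proximal membrane arm Ndufc1 fell by 0.77 (SE 0.23), Ndufa10 by 0.64 (SE 0.19) and Ndufc2 by 0.58 (SE 0.18), and in the distal arm Ndufb11 fell by 0.62 (SE 0.20). The subunit nearest to no change was Ndufab1 (-0.05, SE 0.17), the mitochondrial acyl carrier protein, which also serves fatty acid and iron-sulfur synthesis outside complex I.

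The 3 called assembly factors at 6 weeks were Ndufaf4 (-0.75, SE 0.21), Ndufaf5 (-0.67, SE 0.19) and Ndufaf7 (-0.49, SE 0.15), an arginine methyltransferase. Ndufaf5 stood at 39.3 and 39.1 CPM in wild type and 25.9 and 23.5 in knockout. Ndufaf2 had 0.00 (SE 0.22) and was the assembly factor nearest to no change. Ndufa4l2 had the largest fall of all 46 (-1.13, SE 0.25, edgeR adjusted p = 0.00469), from 9.71 and 9.43 CPM to 4.66 and 4.13, and Ndufa4 fell by 0.71 (SE 0.22).

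**Figure D2:**
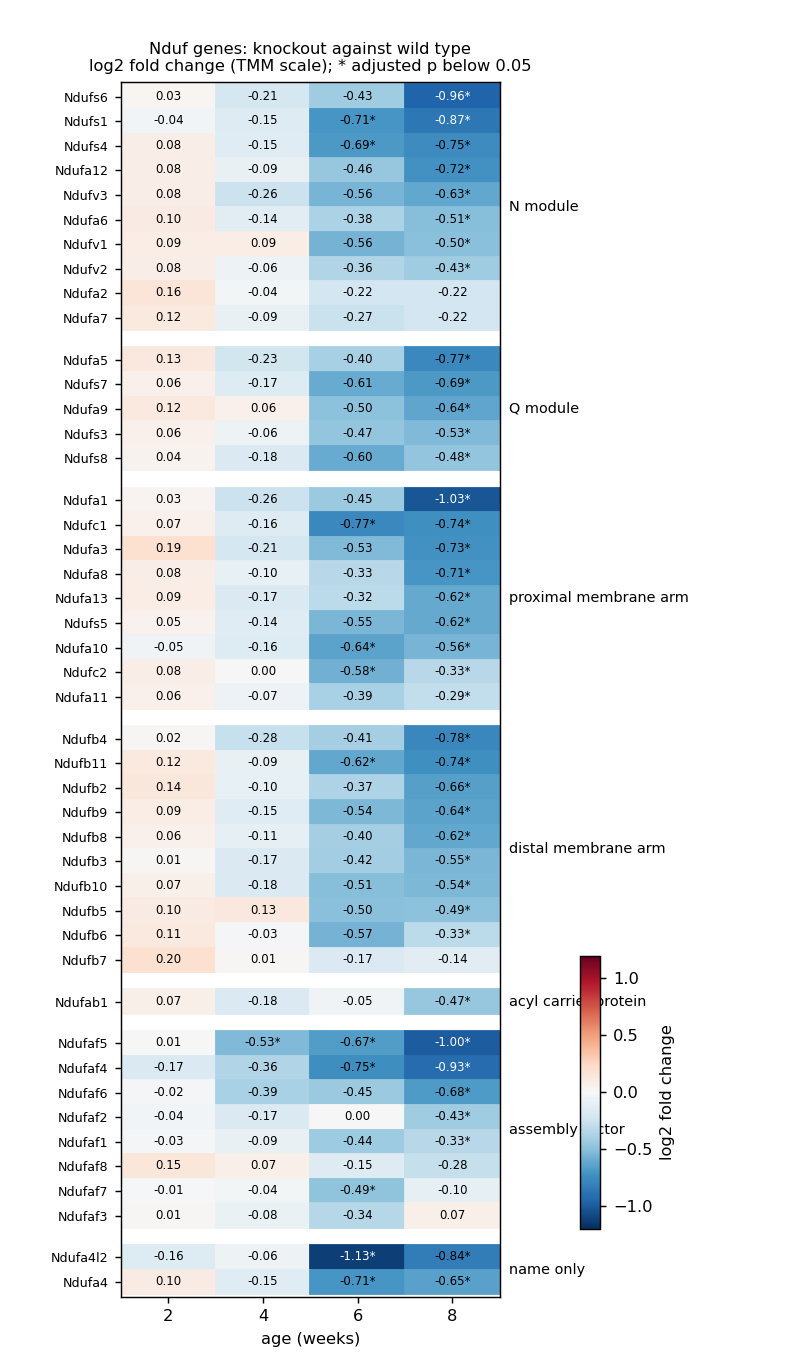
Log2 fold change of knockout over wild type (TMM scale) for 45 of the 46 Nduf genes at 2, 4, 6 and 8 weeks, ordered by module and by the value at 8 weeks; asterisks mark edgeR adjusted p below 0.05. Blue cells fill the columns at 6 and 8 weeks in every subunit module, while the 8 assembly factors at 8 weeks spread from -1.002 for Ndufaf5 to 0.07 for Ndufaf3; with library totals alone the 8-week median of subunits turned to 0.19.

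At 8 weeks subunit RNAs were lower in knockout muscle relative to the typical gene, in every module. On the TMM scale 40 of 46 genes fell and none rose, with 26.3% of all genes called lower and 26.2% called higher; with library totals alone 6 of 46 were called higher and 0 lower, and with totals of nuclear protein-coding genes 3 were called higher and 5 lower. The calls covered 33 of 36 subunits, 5 of 8 assembly factors, Ndufa4 and Ndufa4l2. The median log2 fold change was -0.62 over subunits and -0.38 over assembly factors, beside 0.03 over all genes. Of the 12 genes called lower at 6 weeks, 11 were also called lower at 8 weeks, with Ndufaf7 the exception.

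Scaling moves all genes of a library together, so the difference between the subunit median and the all-gene median is nearly fixed by construction and is given as a description only. With library totals alone all genes had a median of 0.82 and subunits 0.19, a difference of -0.63, and with totals of nuclear protein-coding genes the values were 0.52 and -0.12, a difference of -0.64. TMM gave a difference of -0.65, RLE size factors -0.66 and DESeq2 -0.65. For assembly factors the differences were -0.40, -0.41, -0.41, -0.41 and -0.41 in the same order. The positive subunit value rested on the rRNA-rich libraries: without them, library totals alone gave -0.26 for subunits, 0.03 for assembly factors and 0.47 for all genes, with 16 of 46 called lower and 2 higher. As a share of all counts, subunits held 0.254% and 0.268% in the 2 rRNA-rich wild-type libraries, 0.562% to 0.722% in the other 3 and 0.453% to 0.640% in the 6 knockout libraries. The groups overlapped with and without the rRNA-rich libraries.

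**Figure D3:**
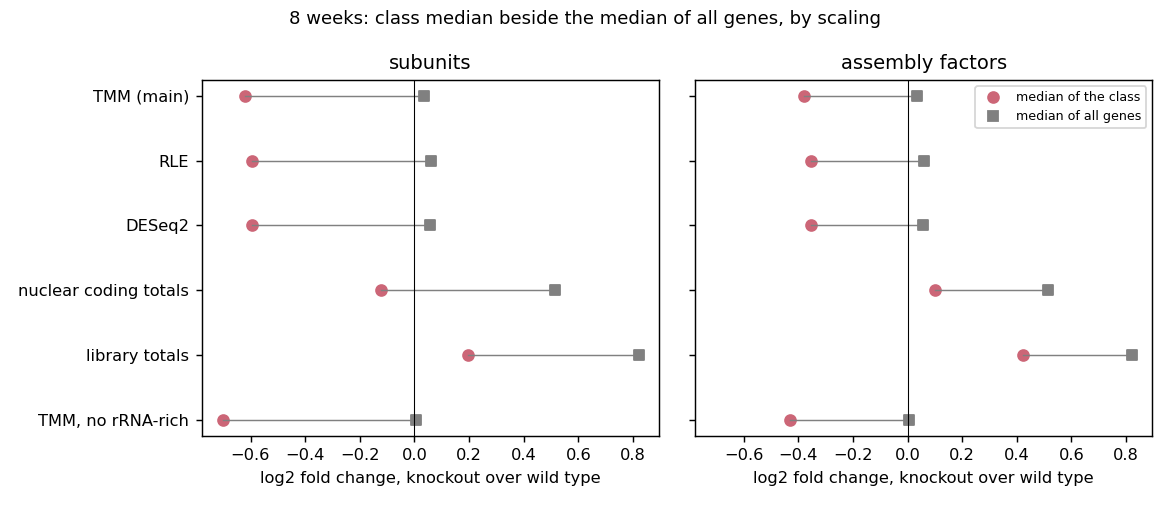
Median log2 fold change at 8 weeks (knockout over wild type, horizontal axis) over 36 subunits or 8 assembly factors (red circles) and over all genes tested (grey squares), for 5 scalings and for TMM without the 5 rRNA-rich libraries. The subunit median turned from -0.62 with TMM to 0.19 with library totals, and the median of all genes moved with it from 0.03 to 0.82, as a scaling shifts all genes together.

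In the N module 8 of 10 subunits fell at 8 weeks. Ndufs6 (chromosome 13, 73319838 to 73328542, minus strand), a zinc-binding subunit added late in assembly, stood at 60.4, 76.7, 80.7, 75.3 and 72.8 CPM in wild-type animals 34 to 38. In the 6 knockout animals it ran from 25.7 to 46.9 CPM with a median of 38.5, below every wild-type library. It fell by 0.96 log2 units (SE 0.10, edgeR adjusted p = 3.86e-09), the smallest p of all 46. Ndufs1 fell by 0.87 (SE 0.11), Ndufs4 by 0.75 (SE 0.12) and Ndufa12, an accessory subunit that joins late in assembly, by 0.72 (SE 0.13). Ndufa2 (-0.22, SE 0.16) and Ndufa7 (-0.22, SE 0.11) did not pass.

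In the Q module all 6 subunits fell. Ndufa5 (chromosome 6, 24518666 to 24528013, minus strand), an accessory subunit, stood at 134, 114, 139, 137 and 137 CPM in wild type and ran from 53.6 to 99.8 with a median of 76.4 in knockout. The groups did not overlap, and the fold change was -0.77 (SE 0.13, edgeR adjusted p = 1.46e-05). Ndufs7, which carries the last iron-sulfur cluster before ubiquinone and is the substrate of Ndufaf5, fell by 0.69 (SE 0.12).

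In the membrane arm all 9 proximal and 9 of 10 distal subunits fell. Ndufa1 (chromosome X, 37187588 to 37191163, minus strand) had the largest fall of all subunits, from 65.6, 75.5, 82.6, 75.5 and 72.2 CPM to between 24.5 and 43.05 with a median of 37.8 (-1.03, SE 0.12, edgeR adjusted p = 7.17e-09). Ndufa8 of the proximal arm fell by 0.71 (SE 0.11). Ndufb11 (chromosome X, 20615326 to 20617619, minus strand) stood at 159, 177, 166, 181 and 187 CPM in wild type and ran from 73.3 to 138 with a median of 102 in knockout, with no overlap. It fell by 0.74 (SE 0.12), and Ndufb4 fell by 0.78 (SE 0.15). The distal subunit Ndufb7 (-0.14, SE 0.12) had the smallest change of the 36 and did not pass. Ndufab1 fell by 0.47 (SE 0.11), from 33.8 to 48.7 CPM in wild type to 25.8 to 43.6 in knockout; the groups overlapped because knockout animal 41 stood at 43.6 and the other 5 knockout libraries at 32.2 or less.

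The assembly factors were more uneven than the subunits. Their log2 fold changes had an SD over genes of 0.38, against 0.20 over subunits, and a median standard error per gene of 0.13 in both. Ndufaf5 (chromosome 2, 140170649 to 140203689, plus strand) stood at 33.5, 38.8, 24.9, 38.3 and 37.8 CPM in wild-type animals 34 to 38 and ran from 12.2 to 20.3 with a median of 18.1 in knockout. It fell by 1.002 (SE 0.12, edgeR adjusted p = 2.77e-08), and every knockout library lay below every wild-type library. Ndufaf4 (chromosome 4, 24898083 to 24905001, plus strand) stood at 57.8, 50.5, 42.7, 57.5 and 59.6 CPM in wild type and ran from 22.6 to 33.4 in knockout, also with no overlap (-0.93, SE 0.13). Ndufaf6, needed for early assembly, fell by 0.68 (SE 0.18) and Ndufaf1 by 0.33 (SE 0.12). Ndufaf2 fell by 0.43 (SE 0.15), but 65.7% of its annotated exon bases lie opposite the antisense gene B230220B15Rik and the strand setting of the counting is not stated, so its value is uncertain.

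Genes whose products work together did not share 1 value. Ndufaf5 and its partner Ndufaf8 had -1.002 and -0.28 (SE 0.14, adjusted p = 0.0909 in edgeR). Ndufaf4 and Ndufaf3, which bind each other, had -0.93 and 0.07 (SE 0.13). Ndufaf3 had 9.86 to 15.3 CPM in wild-type libraries and 10.6 to 16.9 in knockout libraries, so the groups overlapped, with 1 knockout library above every wild-type library and 1 wild-type library below every knockout library. Ndufaf7, called at 6 weeks, had -0.10 (SE 0.09) at 8 weeks. The differences within these pairs were not tested.

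**Figure D4:**
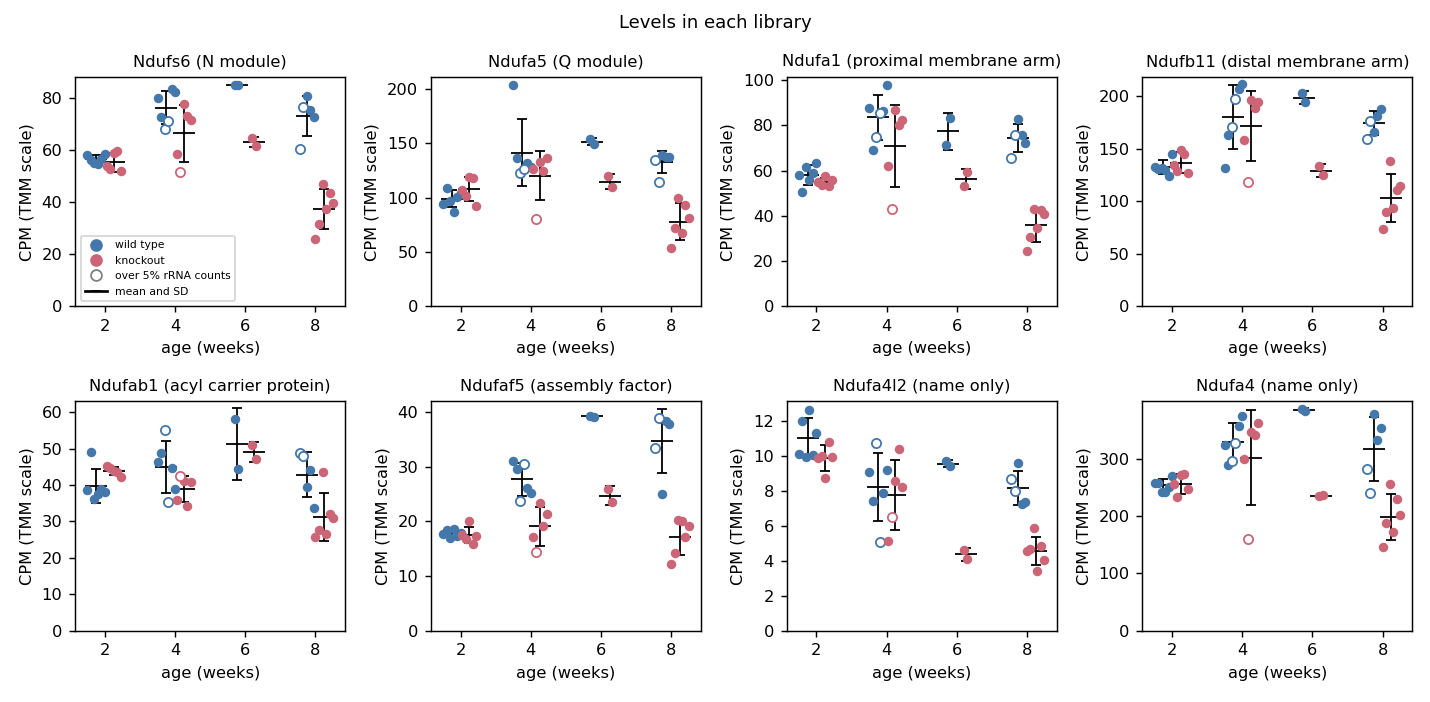
CPM (TMM scale, vertical axis from 0) of 8 Nduf genes in each library by age in weeks, with mean and SD of each group; open circles are libraries with over 5% of counts in rRNA genes. At 8 weeks every knockout library lay below every wild-type library for Ndufs6, Ndufa5, Ndufa1, Ndufb11, Ndufaf5 and Ndufa4l2. At 4 weeks this held for Ndufaf5 alone, an arrangement that 1.77% of all genes showed at that age. With library totals alone Ndufb11 and Ndufa5 turned to 0.11 and 0.03 and Ndufa4 to 0.15 at 8 weeks.

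Ndufa4 and Ndufa4l2 fell as well. Ndufa4l2 stood at 8.69, 8.01, 9.60, 7.26 and 7.37 CPM in wild type and ran from 3.44 to 5.86 with a median of 4.63 in knockout, with no overlap (-0.84, SE 0.16, edgeR adjusted p = 5.06e-05). Ndufa4 fell by 0.65 (SE 0.13), with 240 to 379 CPM in wild type and 146 to 257 in knockout, so 1 knockout library lay inside the wild-type range. Over all 46 genes, 16 had every knockout library below every wild-type library at 8 weeks (13 of 36 subunits, 2 of 8 assembly factors and Ndufa4l2), against 10.7% of all genes.

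The subunit median of a knockout library at 8 weeks, relative to the wild-type mean, ran from -1.16 in animal 39 to -0.24 in animal 41, and that of wild-type libraries from -0.24 in animal 35 to 0.12. For assembly factors the knockout range was -0.82 to -0.03 and the wild-type range -0.18 to 0.14. The subunit median minus the assembly factor median of the same library, which no scaling can move, ran from -0.35 to -0.06 in knockout and from -0.17 to 0.30 in wild type. Within pools the 8-week subunit median was -0.48 in pool A, where both wild-type libraries are rRNA-rich, with 8 genes called lower, and -0.67 in pool B, with 42 called lower.

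**Figure D5:**
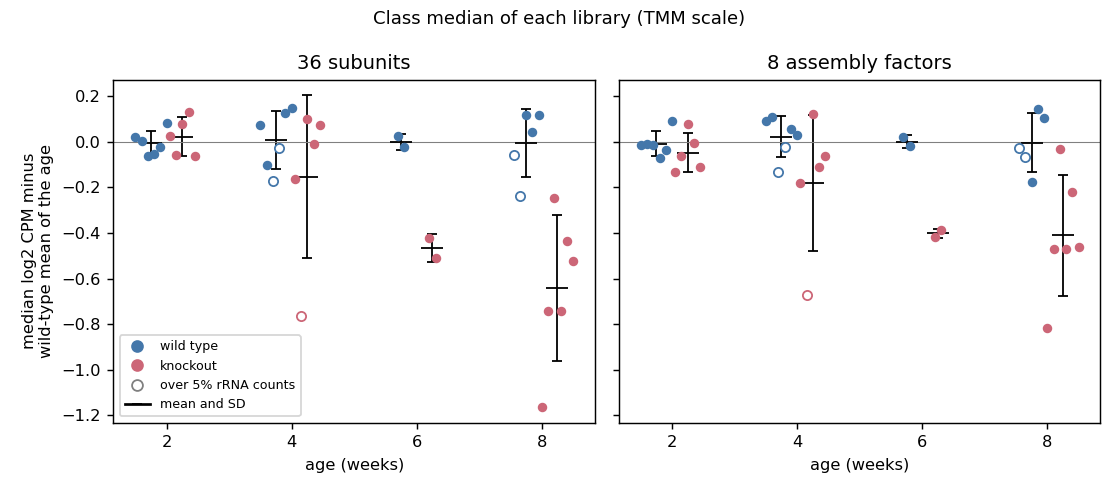
Median over 36 subunits (left) and 8 assembly factors (right) of log2 CPM minus the wild-type mean of the age, 1 point per library, with mean and SD of each group; open circles are rRNA-rich libraries. Knockout animal 8 lies apart at 4 weeks at -0.76, and at 8 weeks the 6 knockout libraries run from -1.16 to -0.24 for subunits; these values are on the TMM scale, and with library totals alone the 8-week subunit median turned to 0.19.

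Once the group means were removed, subunits varied together from library to library and assembly factors less so. As a description over 37 libraries that share scaling factors and depth, the median residual correlation of log2 CPM was 0.775 over 630 pairs of subunits, 0.485 over 288 pairs of a subunit with an assembly factor and 0.346 over 28 pairs of assembly factors. Ndufb9, Ndufs4 and Ndufa6 had the highest median with other subunits (0.848 each). Ndufab1 had the lowest of the subunits (0.374), and Ndufaf4 the lowest of all 46 (0.194), while Ndufaf3 (0.769) and Ndufaf1 (0.729) varied much like subunits.

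The difference of the knockout effect between 8 and 4 weeks was called for 22 of 46 on the TMM scale, all toward lower (18 subunits, 2 assembly factors, Ndufa4 and Ndufa4l2), with 13.8% of all genes called lower; with library totals alone the direction turned, with 2 called higher and 0 lower, while all genes had a median of 0.77. Ndufs6 changed by -0.75 (SE 0.15, edgeR adjusted p = 0.000317), Ndufs1 by -0.72 (SE 0.15), Ndufa1 by -0.77 (SE 0.16) and Ndufb5 by -0.62 (SE 0.15). The assembly factors were Ndufaf4 (-0.57, SE 0.19) and Ndufaf5 (-0.47, SE 0.17). The count was 34 without knockout animal 8, 14 without 7 or 10, and 0 in pool A. It was 9 without the 3 libraries that go against their sex label, and 9 when only the groups compared were fitted.

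Between 4 and 8 weeks calls were made in knockout muscle. In wild type no gene of 46 was called by edgeR or DESeq2, 5 had an unadjusted p below 0.05, and 15.4% of all genes were called either way. In knockout 40 of 46 fell on the TMM scale (35 of 36 subunits, 3 of 8 assembly factors, Ndufa4 and Ndufa4l2), with 21.5% of all genes called lower; with library totals alone the direction turned, with 3 called higher and 0 lower. Ndufa1 fell by 0.96 (SE 0.11), Ndufs6 by 0.82 (SE 0.10), Ndufa8 by 0.74 (SE 0.11) and Ndufs1 by 0.72 (SE 0.11). Ndufaf5 had 0.11 (SE 0.13) from 2 to 4 weeks and -0.17 (SE 0.12) from 4 to 8 weeks in knockout, neither called, while its wild-type level rose from 2 to 4 weeks and had 0.30 (SE 0.12, adjusted p = 0.0822 in edgeR) from 4 to 8 weeks.

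Short promoter sequences were set beside these values. Of the 46 genes, 40 had an entry in RefSeq's promoter windows (GRCm38.p6, 250 bases before to 50 after the start). The letters GCGCATGC, the core of the palindromic site of NRF1, a regulator of nuclear respiratory genes, were searched on both strands and occurred in 5 of 40 (12.5%), against 3.05% of 27025 genes. Both assembly factors with the largest falls at 8 weeks, Ndufaf4 and Ndufaf5, were among them and were the only 2 of the 7 assembly factors with an entry. The subunits with a match were Ndufa11 (-0.29, SE 0.10, the smallest called fall), Ndufa6 (-0.51, SE 0.13) and Ndufa8 (-0.71, SE 0.11), so a match went with small and large falls. The stretches around the matches are shown 5′ to 3′ on the gene's strand with the matched letters, including overlapping matches of both strands, in capitals: 60 bases upstream of the start for 4 genes and 30 bases downstream of it for Ndufaf5. Ndufaf4 has another match, 2 bases after the start, which lies outside the stretch shown.
Ndufaf4 (chr4:24897944-24898003, plus strand): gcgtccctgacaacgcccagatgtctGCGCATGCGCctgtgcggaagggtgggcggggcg
Ndufaf5 (chr2:140170652-140170681, plus strand): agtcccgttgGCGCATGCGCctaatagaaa
Ndufa11 (chr17:56717677-56717736, plus strand): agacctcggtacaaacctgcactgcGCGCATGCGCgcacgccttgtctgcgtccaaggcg
Ndufa6 (chr15:82354341-82354400, minus strand): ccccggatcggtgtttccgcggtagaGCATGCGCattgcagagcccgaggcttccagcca
Ndufa8 (chr2:36049339-36049398, minus strand): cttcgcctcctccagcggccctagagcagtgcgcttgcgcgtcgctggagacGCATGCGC

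The letters AAGATGGC, the core of the site of YY1, occurred on either strand in 8 of 40 windows, against 3.19% of all genes. All 8 matches lay just after the start, and in 7 of 8 the ATG inside the match was an annotated start codon of the gene in GENCODE vM21, so these letters cover both a motif and the beginning of the protein. The genes were Ndufa3, Ndufa9, Ndufb8, Ndufc1, Ndufs4, Ndufs6 and Ndufs7, which all fell at 8 weeks by 0.62 to 0.96, and Ndufaf8 (-0.28), which did not pass and whose ATG was not annotated as a start codon. With or without a match, 33 of 36 subunits were called lower at that age on the TMM scale, with a median of -0.62. A link between the match and the fall was not tested. For 3 of the genes and Ndufaf8 the 30 bases around the match are shown, with the match in capitals.
Ndufs6 (chr13:73328433-73328462, minus strand): aagggtcaccggcAAGATGGCggcggtgct
Ndufs4 (chr13:114388045-114388074, minus strand): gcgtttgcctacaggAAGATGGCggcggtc
Ndufc1 (chr3:51408915-51408944, minus strand): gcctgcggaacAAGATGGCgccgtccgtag
Ndufaf8 (chr11:120098933-120098962, plus strand): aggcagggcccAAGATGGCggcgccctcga

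The site letters of ERR (TCAAGGTCA) occurred in 0 of 40 windows, against 0.466% of all genes, and those of the ETS factor GABPA (CCGGAAGT) in 1 of 40 (2.5%), against 4.31%. Of 10 regulators, 5 were called lower and 2 higher at 8 weeks on the TMM scale, beside 26.3% and 26.2% of all genes. With library totals alone 0 were called lower and 6 higher. Ppargc1a, the coactivator of mitochondrial biogenesis, fell by 1.02 (SE 0.24), from 27.8 to 64.4 CPM in wild type to 13.2 to 33.9 in knockout with overlap. Esrra, which encodes ERR alpha, fell by 0.66 (SE 0.12) and Gabpa by 0.48 (SE 0.09), while Pprc1, a relative of Ppargc1a, rose by 1.09 (SE 0.26). At 4 weeks Ppargc1a ran from 26.3 to 86.7 CPM in knockout and from 24.9 to 36.98 in wild type.

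Other genes of the same pathway were lower beside the Nduf genes at 8 weeks, when 26.3% of all genes were called lower on the TMM scale. Of 12 assembly factors without the Nduf name, 9 were called lower and none higher on the TMM scale, with a median of -0.49, while library totals alone gave 0.31 with 4 higher. Aifm1, which helps import assembly proteins, fell by 0.72 (SE 0.09), and Dmac2 by 0.84 (SE 0.13) and Ecsit by 0.74 (SE 0.11), which act in building the membrane arm. Nuclear genes of the other complexes fell by similar amounts on the TMM scale, with 6 of 8 lower in complex II (median -0.44), 9 of 9 in complex III (-0.50), 10 of 11 in complex IV (-0.60) and 13 of 15 in complex V (-0.48); with library totals alone these medians turned to between 0.22 and 0.35. Among other enzymes that feed or use NADH and ubiquinone, 8 of 10 were lower on the TMM scale and 0 with library totals alone (median 0.23), with Slc25a12, the aspartate-glutamate carrier of the NADH shuttle, at -0.97 (SE 0.12), Nnt, the transhydrogenase, at -1.36 (SE 0.28), and Etfdh, which passes electrons from fat oxidation to ubiquinone, at -0.88 (SE 0.16). At 6 weeks the medians of these complexes lay between -0.48 and -0.36 with 1 gene called.

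The subunits encoded by mitochondrial DNA were called lower at 8 weeks, as were 26.3% of all genes on the TMM scale. Their median knockout effect was -0.24 at 2 weeks, 0.10 at 4 weeks and 0.64 at 6 weeks, with none of 6 tested called by edgeR, and -1.66 at 8 weeks with all 6 called lower. The value at 8 weeks was -0.99 with 4 of 6 lower without the rRNA-rich libraries, and -0.84 with 3 of 6 lower with library totals alone. From 4 to 8 weeks 5 of the 6 were called higher in wild type on the TMM scale (median 1.41), beside 7.8% of all genes. In knockout 0 of the 6 were called over that interval (median -0.34). mt-Nd1 stood at 2819 to 2978 CPM in wild type and 2291 to 3264 in knockout at 6 weeks, and at 3500 to 10330 in wild type and 954 to 2206 in knockout at 8 weeks. At 6 weeks the mean of mt-Nd5 stood at 185.0% of wild type, that of mt-Nd4 at 158.5%, that of mt-Nd1 at 95.8% and that of mt-Nd3 at 47.2%, none of them called. The 6 genes ran from -1.06 to 0.90 in log2 fold change at that age, and their difference from the nuclear subunits was not tested. All mitochondrial genes together held 9.97% to 24.7% of the counts in wild-type libraries and 4.86% to 9.46% in knockout libraries at 8 weeks. The ranges did not overlap with or without the rRNA-rich libraries, though 9.97% and 9.46% lie close. This share does not depend on scaling, but it takes in every gene whose symbol starts with mt-, not messenger RNAs alone.

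Markers of other cell types and of fibre state moved at 8 weeks as well, when 26.3% of all genes were called lower and 26.2% higher. On the TMM scale muscle fibre markers had a median of -1.13 with 4 of 5 lower, macrophage markers 3.37 with 8 of 8 higher, and markers of immature or regenerating muscle 3.35 with 5 of 5 higher. All marker values of this paragraph are on that scale. With library totals alone the 8-week median of all genes moved from 0.03 to 0.82, and a scaling shifts the markers along with it. Summed macrophage markers came to 58.3 to 86.9 CPM in wild-type libraries and 513 to 1167 in knockout libraries, and muscle fibre markers to 49250 to 91290 and 28430 to 76550. Fibre-type myosins had a median of -1.50 (4 of 4 lower), endothelial markers -0.62 (4 of 4 lower), adipocyte markers -1.31 (4 of 4), Schwann cell markers -1.75 (4 of 4), and fibroblast markers 0.69 (4 higher and 1 lower of 6), while none of 5 lymphocyte markers was called. Of these myosins, Myh7 stood at 9293 CPM in wild-type animal 36, 130 to 659 in the other wild types and 96.0 to 339 in knockout. Myh4 stood at 6596 CPM in that animal, 49570 to 63940 in the other wild types and 6979 to 30830 in knockout. At 6 weeks 3 of 8 macrophage markers and 3 of 5 markers of immature muscle were called higher, beside 5.33% of all genes. Their part in the complex I results was not tested. In these bulk samples fewer muscle fibre nuclei and less complex I RNA per fibre cannot be told apart.

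Counting can blur some members. Besides Ndufaf2, over 20% of the 38-base words of Ndufb6 (33.4%), Ndufa13 (31.2%), Ndufs5 (24.7%), Ndufb11 (23.7%) and Ndufs3 (22.1%) also occur in another annotated gene. Ndufs6 shared 12.02%, mostly with its copy Ndufs6b, and Ndufa5, Ndufa1, Ndufaf4 and Ndufaf5 under 1%.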

How the data were processed

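RNA of gastrocnemius muscle from 37 mice was measured by ribosome-depleted, stranded, 38-base paired-end sequencing, per the labels' protocols. The authors deposited raw read counts per Ensembl gene. The submitters' processing notes list mm10 as the build and, as tools, featureCounts 1.5.2, STAR 2.5.2b and edgeR 3.22.0; the annotation, the strand setting and whether reads or pairs were counted are not given in the sources used here. Gene symbols came from GENCODE vM21 (GRCm38), which held 50376 of the 50686 identifiers, and 15977 genes had no count in any library. The members, gene lists and tests were chosen with earlier results of these data known.

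Counts were fitted with edgeR 4.0.16 in R 4.3.3 (robust quasi-likelihood, TMM factors, 8 groups of genotype and age plus sequencing pool, all 37 libraries in 1 model with 28 residual degrees of freedom). Genes passed filterByExpr (count minimum 10, total minimum 15), and p-values were adjusted by Benjamini-Hochberg over the 16728 genes tested. Each library is a numbered animal, and the p-values measure the spread between these animals. Total counts had a median of 16827002 per library. No 2 libraries held identical values. Per-gene CPM used TMM-scaled totals, and log2 CPM a prior count of 2; RPKM divided CPM by the summed exon length of the gene. Alternatives were other scalings (DESeq2 1.42.0 among them), no filter, no pool term, single pools, only the groups compared, labelled sex as a term and the removal of libraries; totals of nuclear protein-coding genes and 2 removals of libraries were added after seeing the data. Tested on simulated counts (16447 genes), the fit recovered 35.7% of changes of log2 size 0.6 and 67.7% of size 1 at 8 weeks, and 12.2% and 36.5% at 6 weeks. False calls made up 2.68%, 6.73%, 9.62% and 3.85% of the simulated calls at 2, 4, 6 and 8 weeks, above the 5% aimed at for 4 and 6 weeks. In the simulation 98 genes changed by 0.6 and 96 by 1, up or down, and the rest had equal means in both genotypes. In the data 52.5% of genes were called at 8 weeks, so the simulated rates need not hold there.

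Genes were named by a rule: Nampt; in each comparison of genotypes up to 10 called subunits and up to 4 called assembly factors of smallest p, or the 2 of smallest p where none was called; the highest and lowest fold change of each class; Ndufa4 and Ndufa4l2; in comparisons of ages up to 4 called genes each way; and up to 3 called genes of each related list at 8 weeks. Genes named beyond it (partners of named assembly factors, genes with a promoter match, and Ndufaf5 over age) were chosen after their values were seen. The values of 1 gene that the rule names are not reported here; it is kept in all counts and medians. Of 13 assembly factors without the Nduf name, 12 were matched.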

Additional observations from a re-analysis of the deposited data

Results flagged for a closer look

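Of 60 groups of 4 to 10 libraries checked for a value far from the rest, 6 held one, and chance gives about 1 in 20. Ndufa5 stood at 80.5 CPM in knockout animal 8 at 4 weeks, an rRNA-rich library, at 203 CPM in wild-type animal 1 at 4 weeks and at 114 CPM in wild-type animal 35 at 8 weeks, also rRNA-rich. Ndufab1 stood at 43.6 CPM in knockout animal 41 at 8 weeks, above the other knockout libraries, and at 49.0 CPM in wild-type animal 23 at 2 weeks. The median of assembly factors relative to wild type was 0.092 in wild-type animal 32 at 2 weeks.

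The knockout effect differed between 4 and 8 weeks by the test of that difference (edgeR) for Ndufs6 (-0.75), Ndufs1 (-0.72), Ndufa1 (-0.77), Ndufb5 (-0.62), Ndufa4l2 (-0.77), Ndufaf4 (-0.57), Ndufaf5 (-0.47) and Ndufa4 (-0.50), in log2 units on the TMM scale. The first 4 turned to between 0.017 and 0.13 with library totals alone.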

How the results depend on the processing

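Counts of called genes are given for the comparisons that moved by over 1.5 times. With library totals alone they were 0 at 4 and 6 weeks, 6 at 8 weeks, 2 for the change between 4 and 8 weeks, 2 for wild type from 2 to 4 weeks and 3 for knockout from 4 to 8 weeks. With totals of nuclear protein-coding genes they were 5 at 6 weeks, 8 at 8 weeks, 1 for the change, 6 for wild type from 2 to 4 weeks, and 1 and 6 from 4 to 8 weeks in wild type and knockout. With library totals alone and without the rRNA-rich libraries they were 23 at 6 weeks, 18 at 8 weeks, 6 for the change, 7 and 5 from 2 to 4 weeks in wild type and knockout, and 21 for knockout from 4 to 8 weeks.

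Pool A gave 2, 1 and 8 at 4, 6 and 8 weeks, 0 for the change, 2 (both higher) and 2 (both lower) from 2 to 4 weeks in wild type and knockout, and 3 for knockout from 4 to 8 weeks; pool B gave 0 at 4 and 6 weeks and 24 for knockout from 2 to 4 weeks. Fitting only the groups compared gave 3 at 6 weeks, 9 for the change, and 3 and 26 for knockout from 2 to 4 and 4 to 8 weeks. A sex term gave 0 at 4 weeks, 2 at 6 weeks and 11 for the change. Without the rRNA-rich libraries there were 0 at 4 weeks and 23 for knockout from 2 to 4 weeks, and without wild-type animal 36 as well 26 at 6 weeks and 19. Without the libraries against their sex label there were 9 for the change and 4 for knockout from 2 to 4 weeks. No filter gave 4 there, and no pool term 7 at 6 weeks.

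Leaving out 1 library gave 0 to 0 calls at 2 weeks, 1 to 3 at 4, 0 to 4 at 6 and 37 to 44 at 8 weeks, 14 to 34 for the change, 29 to 34 and 3 to 21 from 2 to 4 weeks in wild type and knockout, and 0 to 1 and 36 to 42 from 4 to 8 weeks.

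Log2 values that turned with library totals alone were, at 8 weeks, Ndufa8 0.10, Ndufb11 0.11, Ndufs4 0.060, Ndufa5 0.032, Ndufs7 0.12, Ndufa12 0.12, Ndufb4 0.032, Ndufaf6 0.13, Ndufaf1 0.49 and Ndufa4 0.15; for the change, Ndufs6 0.044, Ndufs1 0.067, Ndufa1 0.017 and Ndufb5 0.13; and for knockout from 2 to 4 weeks, Ndufaf4 -0.11, Ndufb5 -0.20 and Ndufaf1 -0.27. With totals of nuclear protein-coding genes Ndufaf1 turned to 0.16 at 8 weeks, and Ndufb5 to -0.031 and Ndufaf1 to -0.094 for knockout from 2 to 4 weeks. Ndufaf1 at 8 weeks was 0.10 with library totals and no rRNA-rich libraries. Beyond scaling and the removal of libraries, the cause was not tested. No paired analysis was possible because animal numbers are not shared between groups. The 2 animals a group at 6 weeks limit the calls made there.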

Other observations

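Among 11 nuclear complex IV genes, Cox6a2, the form found in heart and skeletal muscle, stood lowest at 8 weeks on the TMM scale (-1.23). Cox7a1, its counterpart, had -1.09, against a median of -0.60 over the 11 genes. The complex I subunits encoded by mitochondrial DNA had a median of -1.66, a value that was less negative without the rRNA-rich libraries or with library totals alone. Slc25a51, the carrier of NAD+ into mitochondria, had -0.45. Tfam, which packages and transcribes mitochondrial DNA, had -0.34. At 6 weeks 4 of the 12 assembly factors without the Nduf name were called lower (Nubpl -0.89, Dmac2 -0.65, Aifm1 -0.53 and Acad9 -0.51), beside 3 of 8 with it and 4.34% of all genes.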
